A study of Mus musculus with 6 samples.

Results

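Supporting cells, also called sustentacular cells, are the columnar cells that surround the neurons in the olfactory epithelium, the odour-sensing lining of the nose. Besides enzymes that break down foreign compounds, they are known by structural and secretory genes, and 5 of those were sought here: Ermn, Krt8, Krt18, Sec14l3 and Muc2. They were found by their symbol in the platform's annotation among the transcript clusters that name a single gene, a cluster being all exon probes of a transcript summarised to a single value. Ermn, Krt18 and Muc2 each had 1 such cluster, so 3 genes were measured among the 14807 genes with a single-gene cluster, and Krt8 and Sec14l3 were not analysed here. The lookup of their clusters rests on the annotation and uses no measured value, but the genes were chosen with earlier results of these data known.

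The genotypes were compared at ED18.5, shortly before birth: embryos labelled Emx2 Knockout and embryos labelled Emx2 Homozygous Wildtype. Emx2 encodes a homeodomain transcription factor. Each genotype had 3 arrays, and an array carried the RNA of a pool of 3 animals. That makes 9 animals a genotype, and the spread between arrays is a spread between pools. The labels name no other allele, no strain and no treatment, and they do not say how the knockout allele was made or whether the animals of different pools shared litters. Values are log2 RMA signals, so a difference of 1 is a doubling of signal. Precision is limited by the number of arrays.

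The supporting cells reach from the surface of the epithelium to its base. They insulate the neurons, clear debris and odorants, and secrete into the mucus. Keratin 18, the product of Krt18, is a type I intermediate filament protein of simple epithelia that pairs with keratin 8. Ermin, the product of Ermn, binds actin and is best known from the myelin-forming oligodendrocytes of the brain. Muc2 encodes a gel-forming mucin that is the main secreted mucin of the intestine.

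The tissue carried the markers of its label. Cyp2g1, a cytochrome of the supporting cells, was at 12.06 ± 0.20 in the arrays labelled knockout and at 11.85 ± 0.27 in wildtype arrays (SD, n = 3 each). Omp, the marker of mature olfactory neurons, was at 11.39 ± 0.21 in the arrays labelled knockout and at 12.24 ± 0.37 in wildtype arrays (SD, n = 3 each). Emx2 itself was at 8.37 ± 0.03 in the arrays labelled knockout and at 8.44 ± 0.13 in wildtype arrays (SD, n = 3 each), a log2 difference of -0.07 (limma adjusted p = 0.894). The position of its probes relative to the change in the knockout allele is not known here. The value is therefore no check of the genotypes, and each direction below rests on the labels.

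Because Emx2 is a homeodomain protein, the stretch before the start of each measured gene is shown, from RefSeq on GRCm38.p6, with every TAAT, the core that many homeodomain proteins bind, in capitals on either strand. Each line holds the 250 bases before the start, 5′ to 3′ on the strand of the gene.
Ermn, chr2:58052865-58053114, minus strand: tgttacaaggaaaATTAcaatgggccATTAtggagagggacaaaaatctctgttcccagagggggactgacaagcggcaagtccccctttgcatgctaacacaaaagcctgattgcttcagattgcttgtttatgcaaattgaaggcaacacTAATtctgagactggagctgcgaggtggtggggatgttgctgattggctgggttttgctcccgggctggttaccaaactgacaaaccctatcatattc
Krt18, chr15:102027966-102028215, plus strand: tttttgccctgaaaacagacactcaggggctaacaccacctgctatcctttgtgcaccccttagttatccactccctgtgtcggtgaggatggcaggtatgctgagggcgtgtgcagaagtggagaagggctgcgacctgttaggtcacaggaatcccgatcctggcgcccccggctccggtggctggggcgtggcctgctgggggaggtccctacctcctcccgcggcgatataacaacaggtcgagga
Muc2, chr7:141690090-141690339, plus strand: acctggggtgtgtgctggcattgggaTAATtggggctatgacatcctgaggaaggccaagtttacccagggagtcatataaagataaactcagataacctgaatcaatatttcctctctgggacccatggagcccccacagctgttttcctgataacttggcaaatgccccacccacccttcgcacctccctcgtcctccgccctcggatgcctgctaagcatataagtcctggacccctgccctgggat
The Ermn stretch held 3 matches to TAAT, the Muc2 stretch 1 and the Krt18 stretch 0, while 54.9% of 32851 such stretches in the table held at least 1. The longer palindrome TAATTA, which contains TAAT, occurred in 0 of the 3 and in 4.84% of all stretches. These are matches of letters and show no binding.

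The 3 measured genes had positive log2 differences, and none passed the test. Differences are arrays labelled knockout minus wildtype arrays, fitted with limma over 16661 clusters, and a gene was called at an adjusted p at or under 0.05. That test called 0.144% of all clusters higher and 1.9% lower in the arrays labelled knockout, and 38.4% of all clusters had a difference above 0. The median over all clusters was -0.04.

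Muc2 had the largest difference of the 3. Its log2 signal was 9.06, 9.17 and 9.24 in the arrays labelled knockout, against 8.97, 8.48 and 8.52 in wildtype arrays. Wildtype replicate 1 lay close under the lowest array labelled knockout, and wildtype replicates 2 and 3 lay far below it, so the groups did not overlap but the gap between them was 0.09. All 3 arrays labelled knockout lay above all 3 wildtype arrays for 3.51% of all clusters. The mean was 9.16 ± 0.09 in the arrays labelled knockout and 8.66 ± 0.27 in wildtype arrays (SD, n = 3 each). The log2 difference of 0.50 (SE 0.15, a fold of 1.41) had an unadjusted p of 0.0112 and an adjusted p of 0.237 (limma), so it did not pass over all clusters. Unadjusted p-values under 0.05 with a higher signal in the arrays labelled knockout were found for 1.81% of all clusters, and 0.96% of clusters had a difference at least as large as that of Muc2. The 95% interval, which is not adjusted for the number of clusters, ran from 0.15 to 0.85, or from 1.11-fold to 1.80-fold.

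The call on Muc2 turned on wildtype replicate 1. Without that array the difference was 0.66 and limma's adjusted p was 0.0467, which passed the threshold. With any other array left out the difference lay between 0.41 and 0.55 and did not pass. Over all 15 alternatives the adjusted p ran from 0.0467 to 0.554.

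Ermn was within the wildtype range in 1 array labelled knockout and above it in the other two. Its log2 signal was 9.37, 9.83 and 9.67 in the arrays labelled knockout, against 9.36, 9.52 and 9.38 in wildtype arrays. Knockout replicate 1 sat among the wildtype arrays, and the groups overlapped. The mean was 9.62 ± 0.23 in the arrays labelled knockout and 9.42 ± 0.08 in wildtype arrays (SD, n = 3 each), so the difference of 0.20 (SE 0.13, limma adjusted p = 0.728) was smaller than the spread between the arrays labelled knockout. The 95% interval ran from -0.10 to 0.51, which leaves room for a fold between 0.930 and 1.43. Without knockout replicate 1 the difference was 0.33 and without knockout replicate 2 it was 0.10, neither of which passed.

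Krt18 was the brightest of the 3 clusters, though brightness also depends on the probes and does not rank the genes by abundance. Its log2 signal was 11.54, 11.65 and 11.40 in the arrays labelled knockout, against 11.13, 11.43 and 11.52 in wildtype arrays. The groups overlapped, and wildtype replicate 1 was the lowest array. The mean was 11.53 ± 0.12 in the arrays labelled knockout and 11.36 ± 0.20 in wildtype arrays (SD, n = 3 each). The difference of 0.17 (SE 0.13, limma adjusted p = 0.773) was smaller than the spread between wildtype arrays, and its 95% interval of -0.13 to 0.48 spans folds from 0.915 to 1.39. Without wildtype replicate 1 the difference was 0.06.

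**Figure D1:**
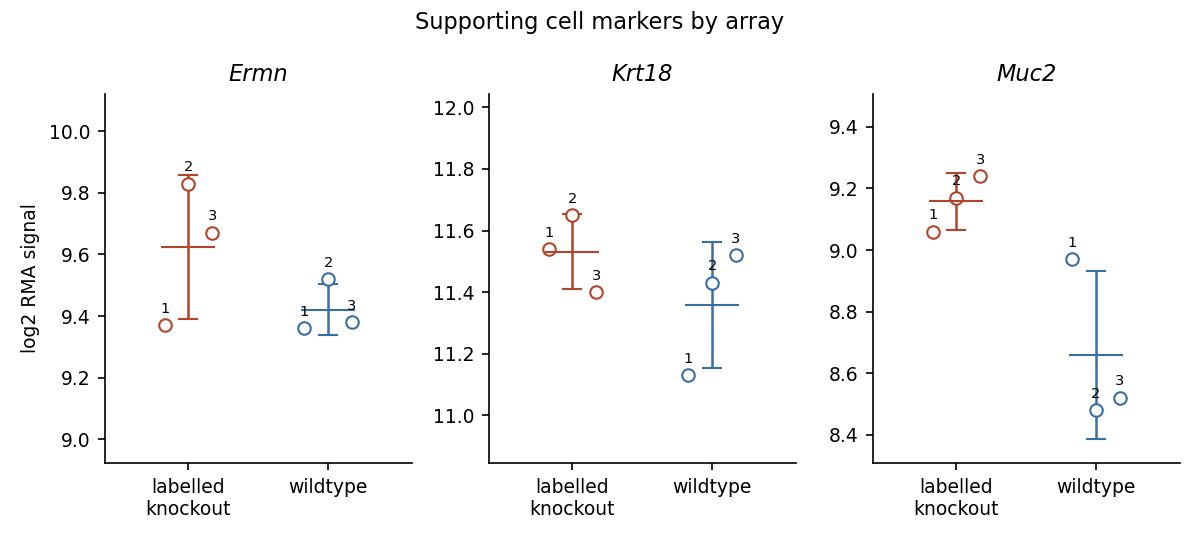
Log2 RMA signal of Ermn, Krt18 and Muc2 on each array, with the arrays labelled knockout on the left and wildtype arrays on the right. Circles are arrays with their replicate number, the wide line is the mean and the error bar the SD of 3 arrays, and each panel spans the same range of log2 units. The groups overlap for Ermn and Krt18, and for Muc2 wildtype replicate 1, at 8.97, stands close under the arrays labelled knockout.

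The 3 genes did not share an order of arrays. Wildtype replicate 1 was the highest wildtype array for Muc2 and the lowest for Krt18, and knockout replicate 1 was low for Ermn and Muc2 but not for Krt18. Averaged over the 3 genes, the log2 signal was 9.99, 10.22 and 10.10 in the arrays labelled knockout, against 9.82, 9.81 and 9.81 in wildtype arrays. The closeness of these wildtype means hides the opposite places of wildtype replicate 1 for Muc2 and Krt18. Ermn and Krt18 each overlapped between the groups, and the mean carries no test and no comparison with other sets of genes.

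The sex make-up of the pools differed, as read from the Y-linked gene Eif2s3y, whose log2 signal was 7.78 to 8.89 in knockout replicates 2 and 3 and wildtype replicate 2, and 3.30 to 3.69 elsewhere. Among the arrays with high Y-linked signal, Muc2 was at 9.21 in the arrays labelled knockout and at 8.48 in the wildtype array, a difference of 0.72. Among those with low signal it was at 9.06 in the array labelled knockout and at 8.75 in wildtype arrays, a difference of 0.31. The difference of Ermn was 0.24 among arrays with high and 0.00075 among arrays with low Y-linked signal, and that of Krt18 was 0.10 and 0.22. Every array with high Y-linked signal lay above every array with low signal for Ermn. The high arrays had 9.83 and 9.67 (knockout replicates 2 and 3) and 9.52 (wildtype replicate 2). The low arrays had 9.37 (knockout replicate 1) and 9.36 and 9.38 (wildtype replicates 1 and 3). These splits leave 1 or 2 arrays a genotype and carry no test. With the Y-linked signal as a covariate in the fit the differences were 0.51 for Muc2, 0.13 for Ermn and 0.17 for Krt18, and none passed (limma adjusted p = 0.391 for Muc2 and 0.890 for Ermn and Krt18).

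**Figure D2:**
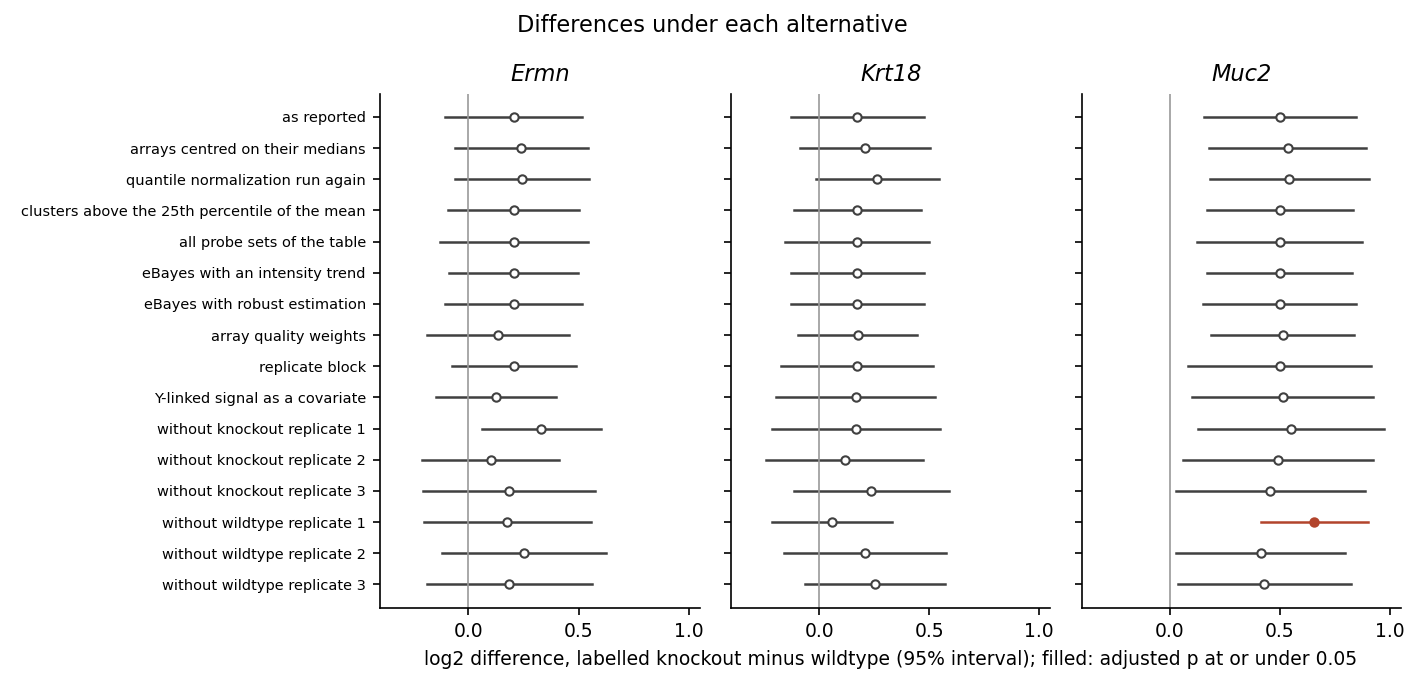
Log2 difference, arrays labelled knockout minus wildtype arrays, of Ermn, Krt18 and Muc2 as reported and under 15 alternatives. Circles are differences and lines their 95% intervals, filled where limma's adjusted p was at or under 0.05, which occurred for Muc2 without wildtype replicate 1 and nowhere else in the plot.

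Other genes of the supporting cells were read in the same fit. Of 5 measured detoxification enzymes 0 rose and 0 fell, with a median difference of 0.02. Cyp1a2, a cytochrome that oxidises foreign compounds, was at 0.74 (SE 0.26) with an unadjusted p of 0.0245 and limma's adjusted p of 0.363. Cyp2g1 was at 0.21 (SE 0.16, limma adjusted p = 0.787). Of 7 measured regulators and signalling genes 0 passed in either direction, and their differences lay between -0.05 and 0.19. The highest was that of Jag1, a Notch ligand (SE 0.08, limma adjusted p = 0.502), and the Notch receptor gene Notch2 was at 0.10 (SE 0.07, limma adjusted p = 0.773). Sox2, a transcription factor that the supporting cells keep, was at 0.05.

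Keratins and their partners gave no call. Of 3 other measured keratins of simple epithelia, Krt19 was at -0.22 (SE 0.11, limma adjusted p = 0.574), Krt20 at -0.22 and Krt23 at 0.07, and none passed. Of 9 measured genes of basal and stratified epithelium 0 passed, with a median of -0.10, and Krt17 at -0.26 (SE 0.10, limma adjusted p = 0.409) and Krt15 at -0.23 had the smallest p-values. Among 17 measured genes of keratin linkers and epithelial junctions 0 passed and the median was -0.00019. Cldn3, a tight junction claudin, was at -0.36 (SE 0.09, unadjusted p = 0.00659, limma adjusted p = 0.172), while Plec, which ties keratin filaments to their anchors, was at 0.13 and the epithelial adhesion molecule Epcam at -0.03.

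The difference of Muc2 was set beside those of other mucins and of secretory cells. Of 6 other measured mucins 0 passed, and their median was -0.03. Muc5ac, Muc5b, Muc16 and Muc19 were not measured, so their differences are unknown here. The transmembrane mucin gene Muc4 was at 0.28 (SE 0.14, limma adjusted p = 0.594), and Muc15 was at -0.34 (SE 0.11, unadjusted p = 0.0188, limma adjusted p = 0.319). Of 11 measured goblet and secretory cell genes 0 passed and the median was -0.03. St6galnac1, which adds sialic acid to mucins, was at 0.19 (SE 0.08, limma adjusted p = 0.462), and Creb3l1, a transcription factor of the secretory pathway, was at 0.28 (SE 0.17, limma adjusted p = 0.699). Agr2, a chaperone that mucin-secreting cells need, was at 0.03, and Bpifa1, an abundant protein of nasal secretion, at 0.02.

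**Figure D3:**
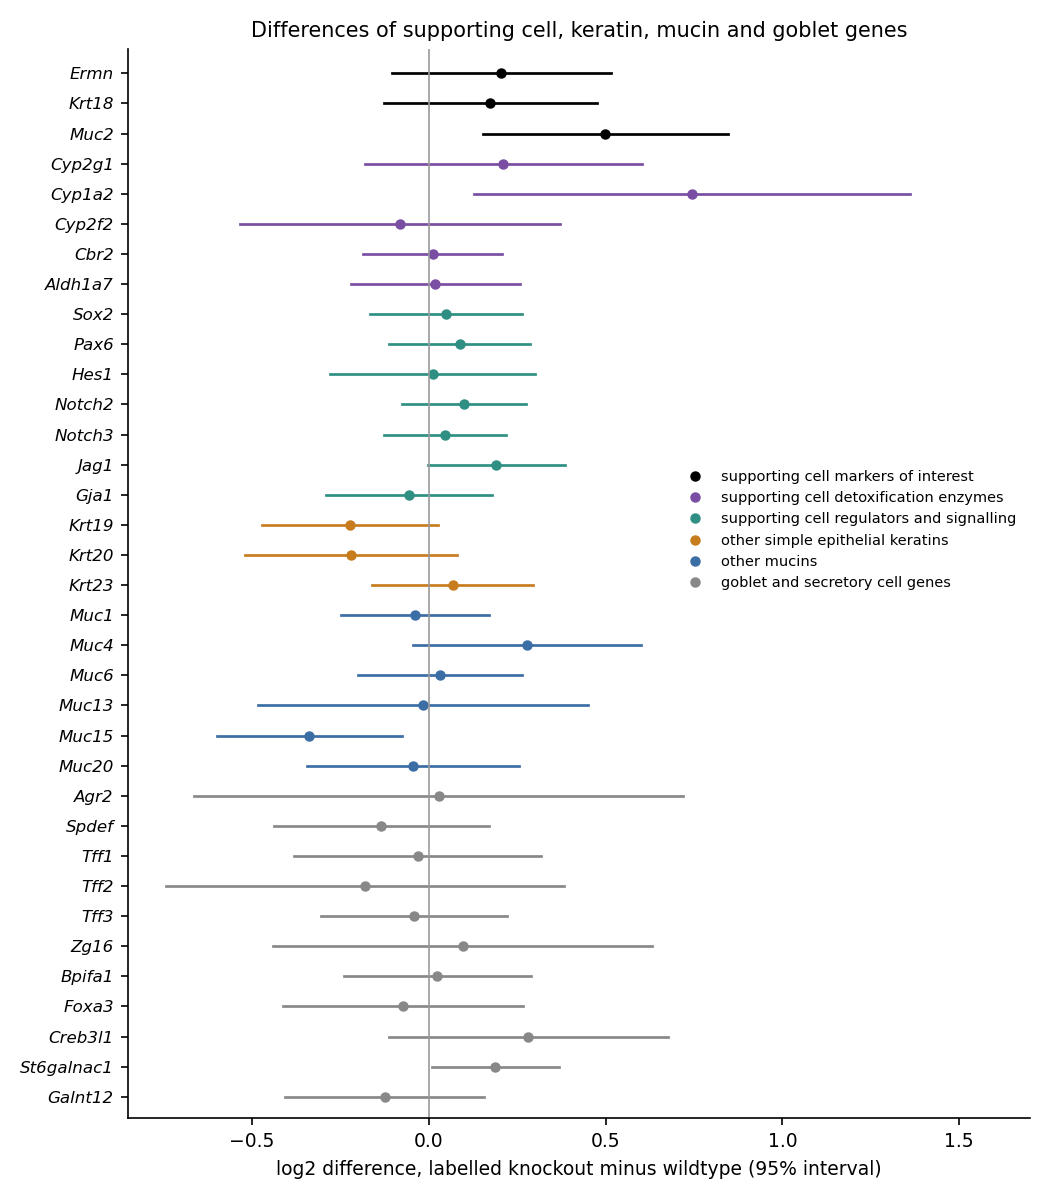
Log2 difference, arrays labelled knockout minus wildtype arrays, with its 95% interval, for Ermn, Krt18 and Muc2 in black and for related genes of supporting cells, simple epithelial keratins, other mucins and goblet cells in colour. None of the genes shown was called, and the intervals, which are not adjusted for the number of clusters, exclude 0 for Muc2, Cyp1a2, Muc15 and St6galnac1.

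Relatives of the other genes were described likewise. Of 8 measured genes of the SEC14 lipid transfer family, to which Sec14l3 belongs, 0 passed and the median was 0.0012. Sec14l2 was at 0.20 (SE 0.13, limma adjusted p = 0.732) and Clvs1 at -0.22 (SE 0.13, limma adjusted p = 0.702). Of 10 measured genes of ERM proteins, the linkers of membrane and actin, and of the apical actin cortex, 0 passed. Vil1, the actin bundler of microvilli, was at -0.39 (SE 0.10, limma adjusted p = 0.168) and Slc9a3r1, a scaffold that binds ERM proteins, at -0.13. Of 9 measured genes of oligodendrocytes and myelin, the cells in which Ermn is best known, 0 rose and 1 fell, 5 differences were positive and 4 negative, and the median was 0.04. Mbp, a main protein of myelin, did not pass, at 0.24 (SE 0.09, unadjusted p = 0.0275, limma adjusted p = 0.382), with 7.31, 7.21 and 7.24 in the arrays labelled knockout, against 7.04, 7.10 and 6.91 in wildtype arrays. Olig1, a transcription factor of that lineage, was at 7.50 ± 0.13 in the arrays labelled knockout and at 8.27 ± 0.10 in wildtype arrays (SD, n = 3 each), a difference of -0.77 (SE 0.10, limma adjusted p = 0.0147). Olig1 lost its call with the Y-linked covariate (adjusted p = 0.0531) and without wildtype replicate 2, wildtype replicate 3, knockout replicate 1 or knockout replicate 3 (highest of these adjusted p-values 0.0721, without knockout replicate 1). Olig2 did not pass, at -0.28 (SE 0.11, limma unadjusted p = 0.0357 and adjusted p = 0.430). The summed linear signal of the 9 genes ran from 1451 to 1611 in the arrays labelled knockout and from 1613 to 1676 in wildtype arrays. That sum includes Olig1 and Olig2 and weighs bright genes most, while the median difference of the 9 was above 0.

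Markers of other cells differed between the same arrays. Of 16 measured markers of mature olfactory neurons 0 rose and 4 fell. The median log2 difference of the 16 was -0.64, with 14 negative and 2 positive. The called genes were at -2.29 for S100a5, -1.21 for Ano2, -1.09 for Rtp2 and -1.07 for Umodl1. With 1 array left out S100a5 passed in 6 of 6 cases, with limma's highest adjusted p at 0.0470 (without knockout replicate 1). The call was lost in 3 of 6 cases for Ano2 (highest limma adjusted p 0.0716, without knockout replicate 3). It was lost in 4 for Rtp2 (0.109, without knockout replicate 1) and in 5 for Umodl1 (0.0787, without knockout replicate 3). Rtp2 and Umodl1 also lost their call with all probe sets tested (adjusted p = 0.0710 and 0.0525), and Rtp2 with the Y-linked covariate (0.0763). Their summed linear signal was 8799 to 10826 in the arrays labelled knockout and 12694 to 17603 in wildtype arrays. In bulk tissue, fewer cells of a type and less RNA per cell cannot be told apart. Of 11 measured markers of mesenchyme, cartilage and bone 0 passed, 11 were positive, and the sum was 13273 to 16676 in the arrays labelled knockout and 8821 to 12886 in wildtype arrays. The bone genes Sp7, at 0.59, and Ibsp, at 1.04, had the smallest p-values of that list. For 7 measured skeletal muscle markers, with Ckm at 0.53 and Tnni2 at 0.82, 0 passed and the sum was 831 to 2280 in the arrays labelled knockout and 690 to 1233 in wildtype arrays. The part of these shifts in the differences of Muc2, Ermn and Krt18 was not tested.

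Other cell types gave 0 calls, and their sums overlapped between the genotypes. Motile ciliated respiratory cells, with 7 measured markers, summed to 5233 to 6512 in the arrays labelled knockout and 5401 to 6592 in wildtype arrays, with Dnah5 at 0.30 and Rsph1 at -0.23. Horizontal basal cells, with 6 markers, summed to 1252 to 1604 in the arrays labelled knockout and 1383 to 1580 in wildtype arrays, with Trp63 at 0.11 and Krt5 at -0.10, both also in the list of basal and stratified epithelium. Medians were 0.06 over 8 markers of microvillous cells and ionocytes, among them Cftr at 0.20 and Coch at 0.18. They were -0.02 over 6 markers of olfactory ensheathing glia, among them Fabp7 at -0.45 and Npy at -0.29, and 0.03 over 5 of endothelium and blood, among them Cdh5 at 0.11 and Alas2 at 0.20.

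The high Muc2 value of wildtype replicate 1 stood beside high values of some other genes, but not of all lists. The mean log2 signal of the detoxification enzymes was 10.76, 10.98 and 10.99 in the arrays labelled knockout, against 10.91, 10.63 and 10.66 in wildtype arrays. That of 4 measured markers of Bowman glands, the mucus glands under the epithelium, was 8.17, 8.06 and 8.67 in the arrays labelled knockout, against 8.86, 7.24 and 7.97 in wildtype arrays, with wildtype replicate 1 the highest of all 6 arrays. The spread of this mean lay mostly in Obp2a, an odorant-binding protein, and Dmbt1, a secreted protein of mucosal glands. Obp2a had 7.67, 8.68 and 9.75 in the arrays labelled knockout, against 10.41, 5.98 and 8.25 in wildtype arrays, and its difference was 0.49 (SE 1.08, limma adjusted p = 0.951). Dmbt1 had 7.05, 5.81 and 6.72 in the arrays labelled knockout, against 7.03, 5.56 and 5.90 in wildtype arrays, and its difference was 0.36 (SE 0.45, limma adjusted p = 0.890). Within the same list Aqp5 was at 0.12 and Sox9, which the cartilage list also holds, at 0.14 (limma adjusted p = 0.867 and 0.831), and the sum was 1347 to 2088 in the arrays labelled knockout and 953 to 2530 in wildtype arrays. Goblet and secretory cell genes averaged 7.66 in wildtype replicate 1, between the 7.46 and 7.85 of the other wildtype arrays. Genes of basal and stratified epithelium averaged 7.52 in wildtype replicate 1, under the 7.80 and 8.14 of the other wildtype arrays. The part of gland markers in the Muc2 values was not tested.

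**Figure D4:**
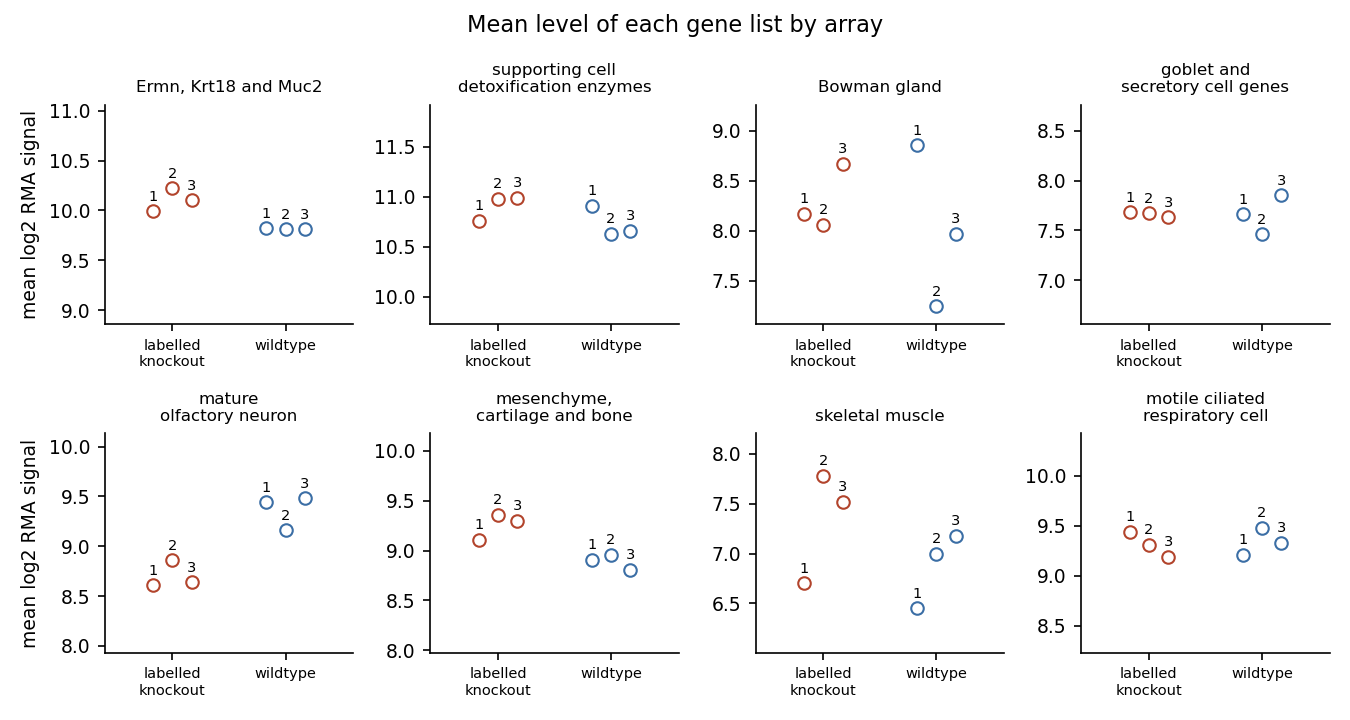
Mean log2 RMA signal of gene lists on each array, arrays labelled knockout on the left and wildtype arrays on the right, with replicate numbers beside the circles and the same span of log2 units in every panel. Neuron markers lie lower and mesenchyme, cartilage and bone markers higher in all 3 arrays labelled knockout, while Bowman gland markers spread within each genotype, with wildtype replicate 1 at 8.86.

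The profiles most like those of the 3 genes were searched among 14806 other genes, by the mean absolute difference over the 6 arrays after each gene's own mean was subtracted. For Muc2 the nearest were Cpa3, a mast cell carboxypeptidase, at 0.0416 log2 units, Cr1l, a complement regulator, at 0.0777 and Pea15a at 0.0903, against a median of 0.305 over all genes compared. Cpa3 had 6.77, 6.91 and 7.03 in the arrays labelled knockout, against 6.65, 6.28 and 6.21 in wildtype arrays. Its highest wildtype array, like that of Muc2, was wildtype replicate 1, which its choice by likeness to Muc2 made likely beforehand. For Ermn the nearest were Smoc2 at 0.0225, Taf1d at 0.0328 and P2ry10b at 0.0377, against a median of 0.198. For Krt18 they were Chrna4 at 0.0294, Lrrtm4 at 0.0316 and Tex10 at 0.0422, against a median of 0.175. None of these 9 genes passed the test between genotypes (limma adjusted p from 0.185 for Cpa3 to 0.877 for Tex10). They were chosen for likeness to 3 genes that did not pass, so this adds no support. With 6 arrays and this many genes, the likeness is a description only.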

How the data were processed

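RNA of dissected ED18.5 mouse olfactory epithelium was hybridised to Affymetrix Mouse Exon 1.0 ST arrays, each with a pool of 3 animals, per the labels. Per the submitters' processing notes, the authors ran RMA in Affymetrix Expression Console, and the deposited values are its log2 signals. RMA subtracts background, makes the arrays' distributions alike and summarises probes, so a change limited to some exons is hidden. No source used here gives versions, genome build or background level. Array medians lay between 7.64 and 7.73.

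Of 23238 probe sets, the 16661 in the numbering range of the platform annotation were tested, of which 14939 name 1 gene, 989 several and 733 none. Where a gene had several clusters, the brightest was used. The fit was made in R 4.3.3 with limma 3.58.1 (eBayes, two-sided, Benjamini-Hochberg over 16661 clusters), a step tested on simulated data. Gene lists were described by counts, medians and sums of linear signals, with no set test. Promoter stretches came from RefSeq. Plots used matplotlib 3.10.9.

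The members and lists were chosen with earlier results of these data known. The text names the sought genes, Emx2, Eif2s3y, up to 4 called genes of each list or the 2 with the smallest p, and the 3 likest profiles of each measured gene. Omp, Sox2, Krt23, Epcam, Agr2, Bpifa1, Mbp, Olig2, Obp2a and Dmbt1 were named after their values were seen. Alternatives were other scalings, filters, variance models, the replicate block, a Y-linked covariate (Eif2s3y alone, since Ddx3y had no single-gene cluster) and each array left out. Same-numbered arrays deviated from their group means with correlations of 0.0074, 0.049 and -0.17 for replicates 1, 2 and 3. Those of differently numbered arrays ran from -0.21 to 0.22. These values do not show a pairing by number, and with 3 arrays a genotype they cannot exclude one. Arrays correlated at 0.975 to 0.991 and pairs shared at most 9 identical values, so each counted as 1 replicate. Nothing in the labels says whether pools of a genotype came from separate litters, so p-values measure the spread between these pools.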

Additional observations from a re-analysis of the deposited data

How the results depend on the processing

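Ermn, Krt18 and Muc2 had a positive difference under all 15 alternatives, but not all of these could change it. The filter on the mean, the test of all probe sets, the trended and robust variance models and the replicate block leave each difference as it was. Only the other scalings, array quality weights, the Y-linked covariate and each array left out could have changed the sign. Muc2 passed the threshold in 1 of the 15 alternatives, without wildtype replicate 1 (0.66), where the cause was not tested. Its differences with 1 array left out ran from 0.41 to 0.66. With 1 array left out those of Ermn ran from 0.10 to 0.33 and those of Krt18 from 0.06 to 0.25, and neither passed. With the replicate block, limma's adjusted p was 0.431 for Muc2, 0.739 for Ermn and 0.848 for Krt18, and the count of lower clusters was 168, against 316 as reported. S100a5, Ano2, Rtp2, Umodl1 and Olig1 did not pass with that block (adjusted p = 0.0607, 0.0668, 0.116, 0.0803 and 0.0765). That count was also 109 after clusters with a mean under the 25th percentile were left out, where fewer were tested, 144 with all probe sets of the table and 178 with the Y-linked covariate. It ran from 145 to 224 with 1 array left out, and the count of higher clusters, 24 as reported, from 13 to 23. Of 285 medians of the other lists under these alternatives, 252 moved by less than the spread between arrays. That count includes the alternatives that leave the differences of single genes as they were. The 3 measured clusters lay above the 25th percentile of all clusters, but signal over background is not given, so how far it compresses their differences is unknown. Krt20, St6galnac1 and Vil1, whose differences are given above, lay below that percentile.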
